A study of Mus musculus with 111 samples.

Results

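The Schlafen genes (Slfn) were followed in the lungs of mice from 1 to 35 days after a single dose of bleomycin. A gene was taken as a member when the array held a probeset, a group of probes summarized into 1 value, that the annotation assigned to that Schlafen gene and to no other gene. This gave 10 of the 32688 probesets and 7 of the 15707 genes measured: Slfn1, Slfn2, Slfn3, Slfn4, Slfn5, Slfn8 and Slfn9. The family was chosen with its differences between bleomycin and saline mice on the 7 days known, so these differences are given as a description, without a test. A probeset annotated to both Slfn3 and Slfn4, and those of the pseudogene Slfn10-ps, of Slfn5os and of the more distant Slfnl1, were not counted as members.

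Young adult male C57BL6/J mice were given bleomycin at 2 U/kg or saline into the trachea on 1 occasion, and the RNA of each mouse was run on an array of its own. Lungs were taken on days 1 and 2, on days 7 and 14, and on days 21, 28 and 35, from 8 bleomycin mice and 8 saline mice per day, apart from saline day 14 with 7 mice, since the authors had left out 1 array. All groups were unmutated animals of 1 strain and 1 sex, and the saline mice received an instillation without the drug. Bleomycin breaks DNA strands and, given into the airways, causes an acute inflammation of the lung that is followed by fibrosis, so that the days span the acute phase and the scarring phase of a model with a single injury. The whole left and right lungs of a mouse were homogenized together, and fewer cells of a type and less RNA per cell cannot be told apart in such samples. The mean of the 6 measured lung epithelial markers lay between 13.33 and 13.59 log2 units on every array. The median level of an array lay between 8.614 and 8.731 log2 units, and the median correlation of an array with the others of its group between 0.984 and 0.9959. The arrays of bleomycin day 21 mouse 4 and bleomycin day 35 mouse 3 stood at the low end of that range. All levels below are log2 values after the robust multi-array average (RMA) of the authors, so a difference of 1 is a doubling, and levels of different genes are not compared since each probeset binds with its own strength. Nothing in the labels says how mice were housed or hybridized together, so the spread between mice may hold technical differences.

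Schlafen proteins take their name from the German word for sleeping, after the arrest of thymocyte growth that Slfn1 caused in the mouse cells in which the family was found. They are grouped by length. Slfn1 and Slfn2 are short, Slfn3 and Slfn4 intermediate, and Slfn5, Slfn8 and Slfn9 long, with a helicase-like end that the others lack. Several members are induced by type I interferon and by Toll-like receptor ligands in immune cells. Slfn2 keeps T cells and monocytes quiescent and shields transfer RNAs from cleavage, Slfn4 marks myeloid cells, and human SLFN11, a long member, sensitizes cells to drugs that damage DNA. In the mouse the genes lie side by side on chromosome 11, in the order Slfn5, Slfn9, Slfn8, Slfn10-ps, Slfn2, Slfn1, Slfn4, Slfn3 and Slfn14 in the RefSeq annotation of GRCm38.p6. Slfn14 was not analysed here.

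Sequence upstream of the start sites was read from RefSeq windows (GRCm38.p6) for all 7 members, because the interferon-stimulated genes form the list whose level went most closely with that of Slfn8 below. The core of the interferon-stimulated response element (ISRE), searched on both strands as GAAANNGAAA, was present in the windows of Slfn5, Slfn8 and Slfn9 and in 3.44% of 32851 windows of the same length, 250 bases before to 50 after a start site. The windows of Slfn1 and Slfn9 held a match to the kappa-B consensus, as did 8.46% of all windows, and 0 of the 7 members held the gamma-activated site TTCNNNGAA, which 8.3% of windows held. Slfn2, Slfn3 and Slfn4 had none of these letters in their windows. The 200 bases before the start site are shown, in the direction of the gene, for both long members that share the same 10 letters (TTTCGTTTTC). Read on the opposite strand, these letters match the ISRE core. Also shown are the bases of Slfn5 with its match farther out, and of Slfn4, which showed the largest difference of the family and held no match. Capitals mark the ISRE core.
Slfn9, chr11:82991831-82992030, minus strand: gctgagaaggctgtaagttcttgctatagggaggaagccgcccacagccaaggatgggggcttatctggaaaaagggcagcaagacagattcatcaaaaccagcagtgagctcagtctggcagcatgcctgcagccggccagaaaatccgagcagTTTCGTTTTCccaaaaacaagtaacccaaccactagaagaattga
Slfn8, chr11:83020811-83021010, minus strand: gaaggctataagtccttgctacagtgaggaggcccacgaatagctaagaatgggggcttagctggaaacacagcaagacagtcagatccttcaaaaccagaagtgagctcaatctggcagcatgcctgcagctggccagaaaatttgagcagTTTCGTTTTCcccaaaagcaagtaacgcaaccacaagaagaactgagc
Slfn5, chr11:82951902-82952101, plus strand: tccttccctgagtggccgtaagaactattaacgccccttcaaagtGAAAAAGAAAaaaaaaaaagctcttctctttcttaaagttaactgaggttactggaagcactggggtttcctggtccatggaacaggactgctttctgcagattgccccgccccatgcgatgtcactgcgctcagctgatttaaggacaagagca
Slfn4, chr11:83174986-83175185, plus strand: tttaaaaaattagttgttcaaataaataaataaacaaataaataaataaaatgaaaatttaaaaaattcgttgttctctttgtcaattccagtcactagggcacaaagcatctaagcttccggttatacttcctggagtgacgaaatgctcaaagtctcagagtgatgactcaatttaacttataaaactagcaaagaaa
The match began 45 bases before the start site in Slfn9, 48 bases in Slfn8 and 155 bases in Slfn5. A second annotated start site of Slfn8 placed the same match 136 bases upstream. The stretches of Slfn8 and Slfn9 were identical at 166 of 205 aligned positions (81%), and the next closest pair of different members, Slfn3 and Slfn8, at 113 of 217 (52.1%). A match of letters is a description of the sequence and not evidence that a factor bound there.

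On day 2 every member, by its most variable probeset, stood higher in bleomycin than in saline lungs and was called. For Slfn5 this depended on the probeset, since 1442640_at differed by 0.06 ± 0.13 on that day. All 7 differences were also above 0 on day 1, at 0.13 to 0.83, with 1 of them called. The day 2 differences ran from 0.62 for Slfn2 to 2.32 for Slfn4, with a median of 1.07 log2 units over the 7 members and -0.01 over all genes. At an adjusted p under 0.05, 7 of 7 members were called higher on day 2, against 14.2% of all genes, and 4 of them were also over 2-fold, against 0.949% of all genes. On the other days fewer members were called higher, 1 on day 1 (14.7% of all genes), 2 on day 7 (25.7%), 2 on day 14 (21.9%), 2 on day 21 (20.5%), 0 on day 28 (11.5%) and 0 on day 35 (16.9%). No member was called lower on any day, against 16.7%, 13.1%, 21.9%, 19.7%, 18.9%, 11.8% and 12.5% of all genes from day 1 to day 35. This makes 14 of 49 pairs of a member and a day, all of them higher. Slfn9 was over 2-fold higher on days 7 and 14 as well, which 2.85% and 2.41% of all genes were. Since these contrasts chose the family, nothing is read from the counts.

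**Figure D1:**
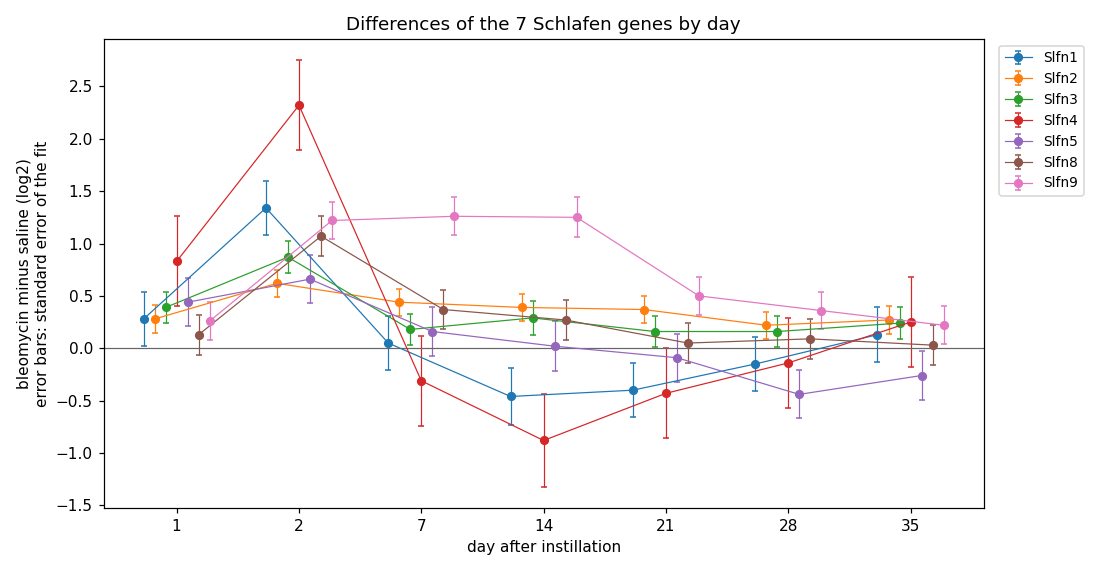
Bleomycin minus saline in log2 units (y axis) by day after instillation (x axis) for the 7 Schlafen genes, with bars of 1 standard error. All 7 points lie above 0 at day 2, with Slfn4 at 2.32, and Slfn9 stays between 1.22 and 1.26 through day 14 while Slfn4 is at -0.31 on day 7 and -0.88 on day 14.

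Slfn4, a myeloid member of intermediate length, showed the largest difference. On day 2 its level in bleomycin lungs was 11.73 at the lowest, 12.37 at the median and 13.35 at the highest, against 9.07, 10.19 and 10.87 in saline lungs. All 8 bleomycin mice lay above all saline mice, a separation that 1.41% of all genes reached on that day. The difference was 2.32 ± 0.43 (SE), or 5-fold. From day 7 it was not called on any day, with -0.31 ± 0.43 on day 7 and -0.88 ± 0.44 on day 14, when 3 of 8 bleomycin mice lay below all 7 saline mice. The probeset shared by Slfn3 and Slfn4, which cannot be assigned to either, was 1.47 higher on day 2 and also separated the groups completely.

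**Figure D2:**
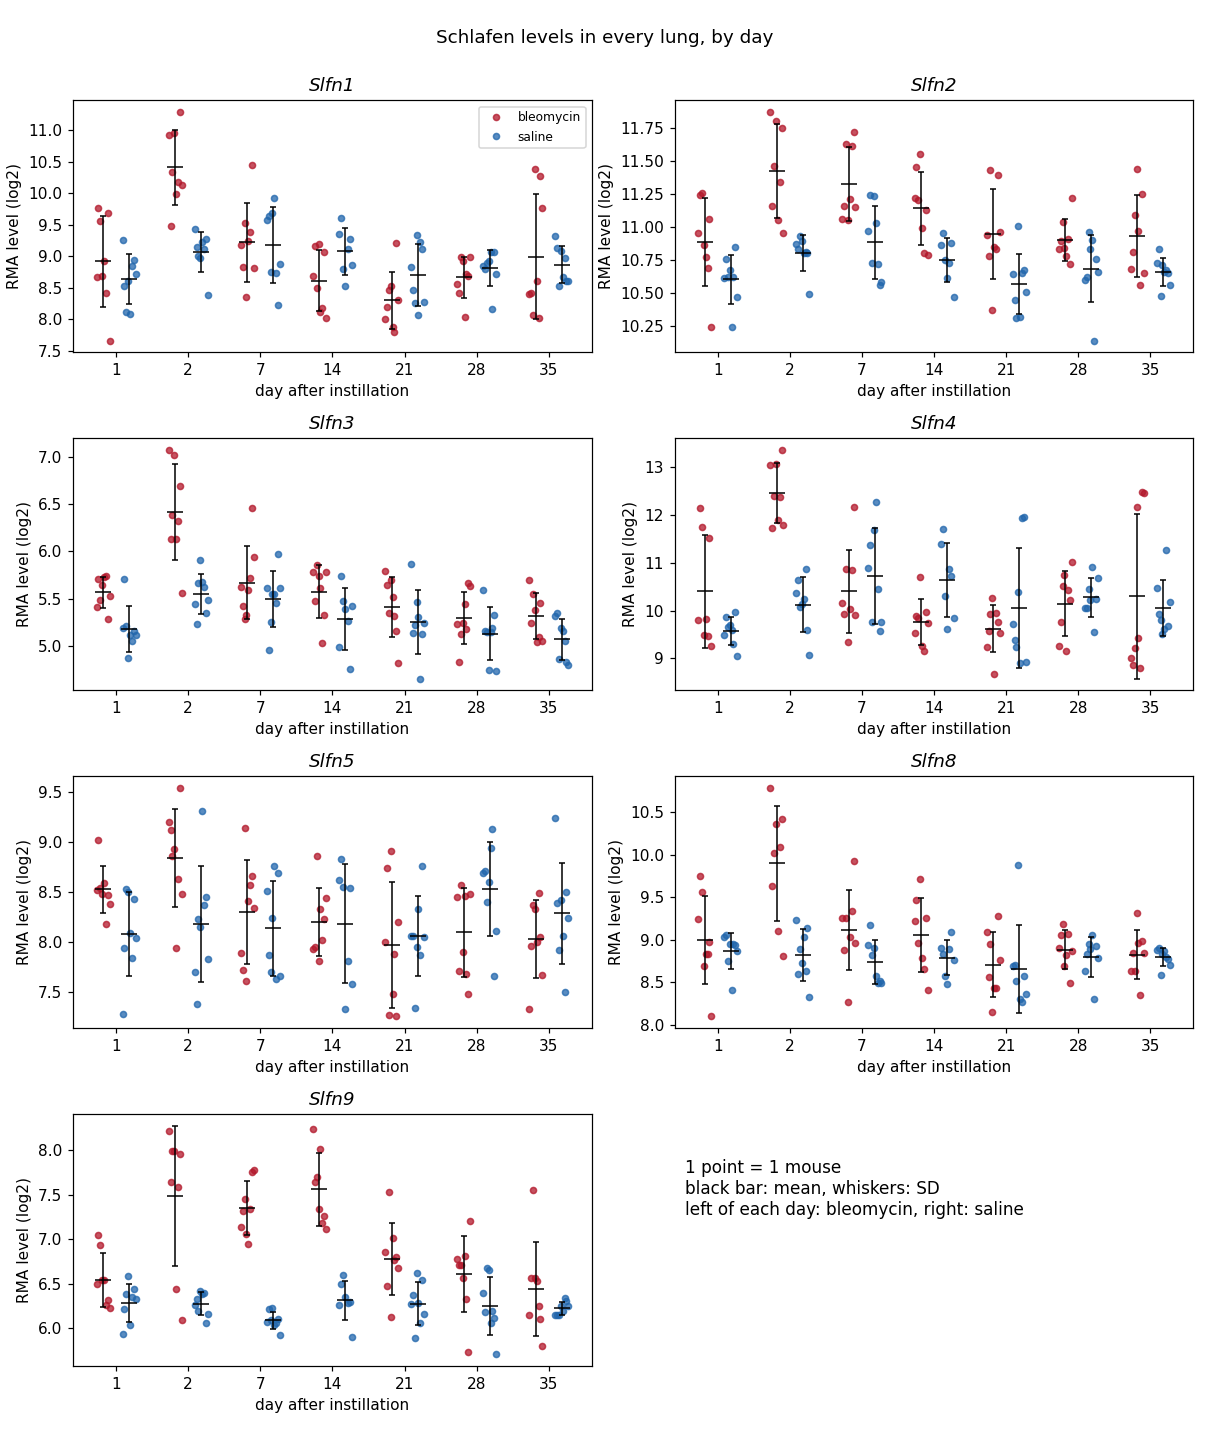
RMA level in log2 units (y axis) of each Schlafen gene in every mouse by day after instillation (x axis), bleomycin at the left and saline at the right of each day, with mean and SD in black. Slfn4 has 3 high bleomycin mice on days 1 and 35, and the bleomycin mice of Slfn9 lie above all saline mice on days 7 and 14.

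Bleomycin mice of the same day were far apart in Slfn4 at both ends of the time course. On day 1, mice 2, 3 and 7 had 12.13, 11.74 and 11.51, and the other bleomycin mice lay between 9.27 and 9.83, next to saline mice between 9.05 and 9.97. On day 35, mice 4, 7 and 8 had 12.15, 12.48 and 12.45, above all 8 saline mice (9.51 to 11.27), and the remaining 5 bleomycin mice lay between 8.81 and 9.43, below all of them. The bleomycin mean of 10.30 on day 35 lay in the gap between 9.43 and 12.15, where no bleomycin mouse was, and the difference was 0.25 ± 0.43. Slfn1 separated the same mice. It stood at 9.76, 9.55 and 9.68 in mice 2, 3 and 7 of day 1, with the other bleomycin mice at 7.66 to 8.93 and saline mice at 8.08 to 9.25. On day 35 its values were 10.39, 10.28 and 9.76 in mice 4, 7 and 8, with the others at 8.02 to 8.60 and saline mice at 8.53 to 9.32. Several gene lists moved with this pattern. The mean of the 10 measured neutrophil markers was 9.20 to 9.34 in the high bleomycin mice of day 1 and 8.33 to 8.88 in the others, and on day 35 it was 9.71 to 10.45 and 8.33 to 8.86. The mean of the 5 measured monocyte markers was 10.20 to 10.39 and 8.98 to 9.83 on day 1, and 10.11 to 10.64 and 9.64 to 9.75 on day 35. On day 1 the high mice also lay above the other bleomycin mice in the means of the interferon-stimulated genes (10.44 to 11.06 and 9.34 to 10.37), the interferons, receptors and signal transducers (8.77 to 8.87 and 8.63 to 8.69), the NF-kB list (9.41 to 9.65 and 9.10 to 9.32), the macrophage markers (10.07 to 10.42 and 9.79 to 9.96) and the NK cell markers (9.03 to 9.23 and 8.49 to 9.02), and below them in the endothelial markers (11.45 to 11.51 and 11.52 to 11.63). On day 35 these lists overlapped between the high and the other bleomycin mice. Saline mice were also uneven, and saline mice 6 and 7 of day 21 had Slfn4 at 11.92 and 11.94, with neutrophil means of 10.67 and 10.59, among saline mice between 8.90 and 10.38 in Slfn4 and between 9.19 and 10.23 in the markers. The part of these cells and lists in the result was not tested.

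Slfn1, the founding short member, followed Slfn4 at a smaller size. On day 2 it reached 9.48, 10.26 and 11.29 in bleomycin lungs (lowest, median and highest), against 8.38, 9.13 and 9.43 in saline lungs, without overlap, and the difference was 1.34 ± 0.26 (2.54-fold). On days 14 and 21 the differences were -0.46 ± 0.27 and -0.40 ± 0.26, and 4 and 3 of the 8 bleomycin mice lay below all saline mice. Over days 7 and 14 the mean response of Slfn1 differed from that of days 1 and 2 by -1.02 ± 0.27, and that of Slfn4 by -2.17 ± 0.43.

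Slfn2, the other short member and a keeper of quiescence in T cells and monocytes, had a smaller and longer-lasting difference. Its day 2 levels were 10.95, 11.40 and 11.87 in bleomycin lungs and 10.49, 10.82 and 10.93 in saline lungs, again without overlap, with a difference of 0.62 ± 0.13 (1.54-fold). The difference was then 0.44, 0.39 and 0.37 on days 7, 14 and 21 and 0.22 and 0.27 on days 28 and 35, each ± 0.13. Slfn3, of intermediate length and known in the rodent gut for its part in epithelial differentiation, was higher by 0.39 ± 0.15 on day 1 and by 0.87 ± 0.15 on day 2. Its day 2 levels were 5.56, 6.35 and 7.08 in bleomycin lungs, against 5.23, 5.55 and 5.91 in saline lungs, so that 7 of 8 bleomycin mice lay above all saline mice. Slfn3 was the only member whose mean level lay among the lowest 25% of genes, under 6.55 log2 units.

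Slfn8, a long member beside Slfn9 in the cluster, was higher on day 2 alone by more than 1 log2 unit. It lay at 8.81, 10.05 and 10.79 in bleomycin lungs, against 8.33, 8.81 and 9.24 in saline lungs, a difference of 1.07 ± 0.19 (2.11-fold), and 6 of 8 bleomycin mice were above all saline mice. Differences of 0.37, 0.27 and 0.05 followed on days 7, 14 and 21. The mice that did not separate on day 2 were mice 5 and 8, with 9.10 and 8.81, and the same mice were the low ones in Slfn9. Their means over the 23 measured interferon-stimulated genes, 9.86 and 9.77, were also the lowest of the group. The other 6 mice had 11.26 to 11.82, while saline mice of day 2 had 9.32 to 9.75. Mice 5 and 8 were lowest in other lists too. These were the interferon-gamma list (10.59 and 10.52, others 11.23 to 11.78) and the macrophage markers (9.99 and 10.07, others 10.32 to 10.92). The same held for the NF-kB list (9.15 and 9.14, others 9.26 to 9.83) and the fibroblast markers (9.27 and 9.45, others 9.56 to 9.93). It held as well for the interferons, receptors and signal transducers, for Slfn2 and for Slfn5. Their Slfn4 levels of 11.89 and 11.78 and neutrophil marker means of 9.44 and 10.30 lay within those of the other bleomycin mice, 11.73 to 13.35 and 8.90 to 10.86.

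Slfn9, the long neighbour of Slfn8, was called higher on days 2, 7, 14 and 21, as Slfn2 was, and was over 2-fold higher through day 14. On day 2 its levels were 6.09, 7.80 and 8.22 in bleomycin lungs and 6.06, 6.30 and 6.42 in saline lungs, with a difference of 1.22 ± 0.18 (2.32-fold) and 7 of 8 bleomycin mice above all saline mice. Mouse 8 was at 6.09 and mouse 5 at 6.44. On day 7 all 8 bleomycin mice, 6.95 to 7.78, lay above all saline mice, 5.92 to 6.22, as 10.3% of all genes did on that day, and the difference was 1.26 ± 0.18. On day 14 the ranges were 7.12 to 8.24 and 5.90 to 6.60 with a difference of 1.25 ± 0.19, and 10% of all genes separated. The difference was 0.50 ± 0.18 on day 21, 0.36 on day 28 and 0.22 on day 35, or 0.06 on day 35 without bleomycin mouse 3 of that day. A second Slfn9 probeset gave 0.75, 0.85, 0.82 and 0.42 on days 2, 7, 14 and 21 (each ± 0.13) and separated the groups completely on days 7 and 14 too. The pseudogene Slfn10-ps between Slfn8 and Slfn2 had differences of 0.48, 0.76 and 0.61 on days 2, 7 and 14. Slfn8 and Slfn9 are similar genes, and whether the probes of either, or of Slfn10-ps, also bind the transcripts of the others was not tested.

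**Figure D3:**
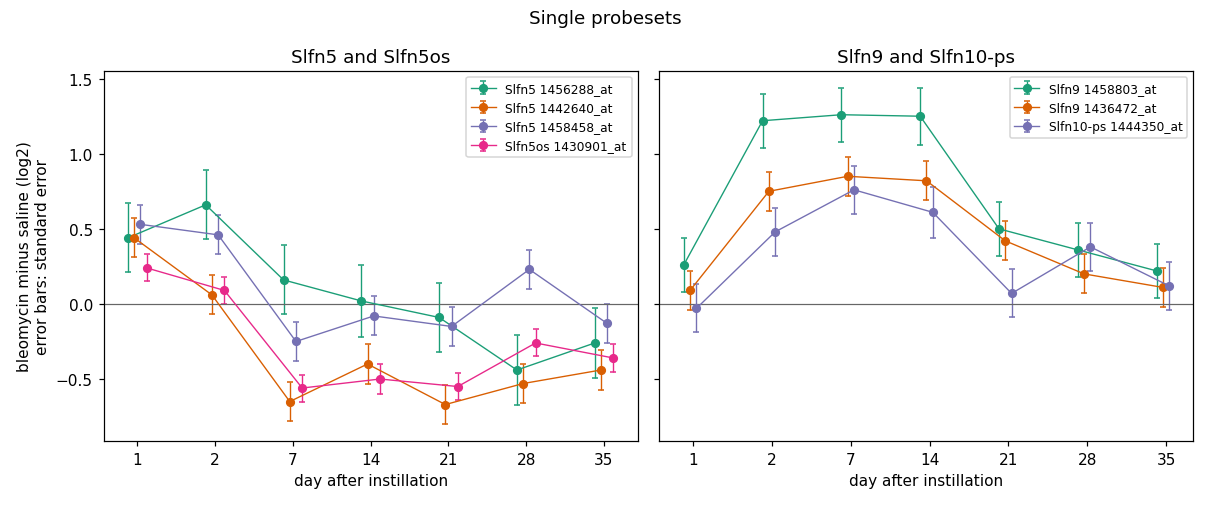
Bleomycin minus saline in log2 units (y axis) by day after instillation (x axis) for single probesets, with bars of 1 standard error. The 3 Slfn5 probesets lie apart from day 7 on, with 1442640_at at -0.65 and 1456288_at at 0.16 on day 7, and the 2 Slfn9 probesets run in parallel.

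Slfn5, a long interferon-induced member, gave no single answer. The most variable of its 3 probesets (1456288_at) was 0.66 ± 0.23 higher on day 2, where bleomycin lungs had 7.94, 8.89 and 9.54 and saline lungs 7.38, 8.19 and 9.31, and only 1 of 8 bleomycin mice was above all saline mice. Its differences were 0.16, 0.02 and -0.09 on days 7, 14 and 21 and -0.44 and -0.26 on days 28 and 35. The probeset 1442640_at differed by 0.44 on day 1 and 0.06 on day 2, and by -0.65, -0.40, -0.67, -0.53 and -0.44 on days 7, 14, 21, 28 and 35, each ± 0.13. On day 7 its 8 bleomycin mice, 8.40 to 8.92, all lay below the saline mice, 9.15 to 9.68, as 4.53% of all genes did. The probeset 1458458_at differed by 0.53 and 0.46 on days 1 and 2 by -0.25, -0.08 and -0.15 on days 7, 14 and 21, and by 0.23 and -0.13 on days 28 and 35. On day 28, 4 of its 8 bleomycin mice lay above all saline mice. Slfn5os, by its name a transcript from the opposite strand of Slfn5, was close to 1442640_at, with -0.56, -0.50 and -0.55 on days 7, 14 and 21, and its bleomycin mice lay below all saline mice on days 7 and 14, as 6.66% of all genes did on day 14. The size of the Slfn5 difference on day 2 and its direction afterwards thus depended on the probeset. Which transcript each one measures was not tested.

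Over the 14 groups, bleomycin day 2 had the highest mean of Slfn1, Slfn3, Slfn4 and Slfn8, by more than 1 SD over the next group (the larger SD of both groups). For Slfn4 the mean was 12.45 ± 0.63 (SD, n = 8), followed by saline day 7 at 10.72 ± 1.00, and the 12 steps further down the order were each within 1 SD. For Slfn9 bleomycin days 14, 2 and 7 came first with 7.56 ± 0.41, 7.49 ± 0.79 and 7.35 ± 0.31, which were within 1 SD of each other, and bleomycin day 21 followed at 6.78 ± 0.41. No step in the order of Slfn2 or Slfn5 exceeded 1 SD. Levels of saline mice between days, a contrast that did not enter the choice of the family, were tested by limma's moderated F test over the 7 saline groups. Slfn3 passed with an adjusted p of 0.0274 (F = 2.85), its saline means lying between 5.07 on day 35 and 5.55 on day 2. It was 1 of 7 members, while 54.1% of all genes passed. The widest range of saline means was that of Slfn4, 9.58 on day 1 to 10.72 on day 7, a range of 1.14 against a median of 0.27 over all genes, with an adjusted p of 0.216.

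Whether members moved together from mouse to mouse was tested on the deviation of each mouse from the mean of its own group. These deviations hold no difference between the group means of bleomycin and saline mice. They still hold differences in how strongly single bleomycin mice responded, so values in saline mice alone are given as well. Of the 21 pairs of members 12 passed a two-sided permutation test within groups at an adjusted p under 0.05. The closest pair was Slfn1 and Slfn4 (Pearson's r = 0.83, Spearman's rho = 0.82 over all 56 bleomycin and 55 saline mice, permutation p = 1e-05 for both, the smallest that 100000 draws can give, adjusted p = 2.62e-05 and 3e-05). Their r was 0.81 without the 2 mice farthest from the median of Slfn1 and positive within 13 of the 14 groups. Slfn2 and Slfn8 followed (r = 0.81, rho = 0.76, r = 0.79 without the farthest 2 mice), with a positive r in 14 of 14 groups. Slfn1 also went with Slfn2 (r = 0.74, rho = 0.76) and Slfn8 (r = 0.68, rho = 0.69), each positive in 14 groups, and all 3 pairs had the same permutation p as the first. Slfn9 went with Slfn2 (r = 0.56, rho = 0.51, permutation p = 1e-05 for both) and Slfn8 (r = 0.50, rho = 0.35, permutation p = 1e-05 and 0.0007) and not detectably with Slfn1 (r = 0.13, rho = 0.16, permutation p = 0.291 and 0.12) or Slfn4 (r = 0.11, rho = 0.16, permutation p = 0.333 and 0.105). Slfn3 had an r between 0.06 with Slfn4 and 0.32 with Slfn9, and the direct neighbours Slfn4 and Slfn3 did not go together detectably (rho = 0.04, permutation p = 0.558 and 0.719). In bleomycin mice alone 10 pairs passed, in saline mice alone 7, and over all mice with the probeset of highest mean for each gene 8. The pair of Slfn3 and Slfn5 was the closest to the threshold (r = 0.23, rho = 0.26, permutation p = 0.0285 and 0.0124, adjusted p = 0.0499 and 0.026). The pair of Slfn1 and Slfn4 had r = 0.89 in bleomycin mice and r = 0.72 in saline mice, and that of Slfn8 and Slfn9 r = 0.57 in bleomycin mice and r = 0.25 in saline mice, where its adjusted p was 0.263. The difference between these coefficients was not tested.

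**Figure D4:**
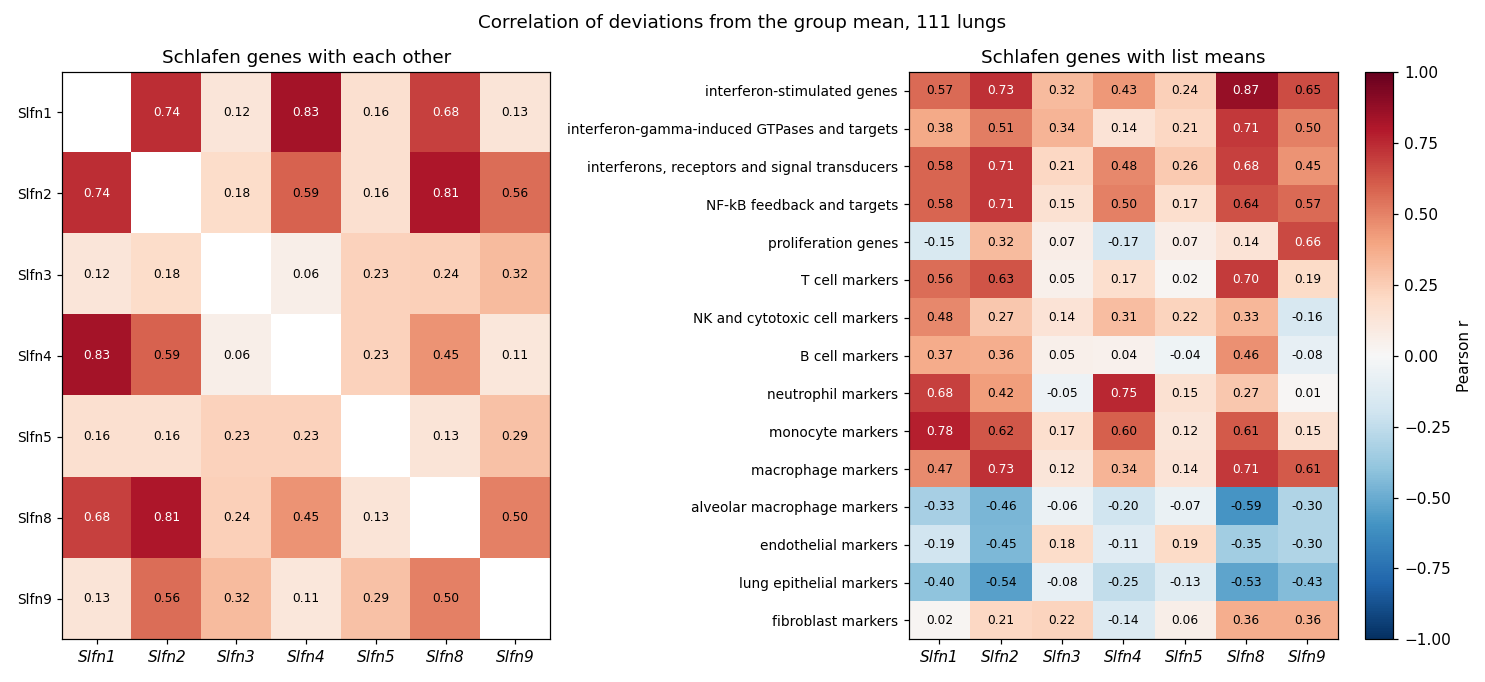
Pearson's r of deviations from the group mean over all lungs (colour and number), for the 7 Schlafen genes with each other at the left and with the mean of each gene list at the right. The largest values are 0.83 for Slfn1 with Slfn4, 0.81 for Slfn2 with Slfn8 and 0.87 for Slfn8 with the interferon-stimulated genes, and the row and column of Slfn3 stay at or below 0.32 in the left panel.

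The members also differed in which gene lists they went with. The means of 15 lists were set against the 7 members in the same way, a comparison chosen after the data were seen, and 62 of 105 pairs passed at an adjusted p under 0.05. Slfn8 went with the interferon-stimulated genes at r = 0.87 and rho = 0.80, r = 0.85 without the 2 farthest mice, with a positive r in 14 of 14 groups. This r was 0.90 in bleomycin mice and 0.83 in saline mice, where rho was 0.72 and r without the 2 farthest mice 0.69. In saline mice Slfn8 had rho = 0.81 with the T cell and the B cell markers each (r = 0.80 and 0.77). Over all mice its r was 0.71 with the macrophage markers and the interferon-gamma list each, and 0.70 with the T cell markers. Over all mice Slfn4 was closest to the neutrophil markers (r = 0.75, rho = 0.73, r = 0.73 without the 2 farthest mice). This r was 0.74 in bleomycin mice and 0.76 in saline mice. With the monocyte markers Slfn4 had r = 0.60 over all mice and 0.28 in saline mice. In bleomycin mice that r was 0.81, above the r with the neutrophil markers. For Slfn1 the monocyte markers came first over all mice (r = 0.78, rho = 0.77), with r = 0.85 in bleomycin mice and r = 0.67 in saline mice. In saline mice its r with the NF-kB list was 0.69, above the r with the monocyte markers. Slfn9 stood out by its r with the proliferation genes (r = 0.66, rho = 0.59, r = 0.68 without the 2 farthest mice), with r = 0.68 in bleomycin mice and r = 0.58 in saline mice, a list with which Slfn2 had r = 0.32 (adjusted p = 0.00577) and the other members r between -0.17 and 0.14. Slfn9 had r = 0.65 with the interferon-stimulated genes, and in saline mice alone r = 0.27 (adjusted p = 0.231). In bleomycin mice alone this r was 0.72, above the 0.68 of Slfn9 with the proliferation genes. There Slfn9 had r = 0.67 with the macrophage markers and with the interferon-gamma list. Slfn2 had r = 0.73 with both the interferon-stimulated genes and the macrophage markers. The permutation p of each first-named r was 1e-05, the smallest that the draws can give, with an adjusted p of 3e-05. Slfn3 and Slfn5 passed with 2 lists each and had no r above 0.34. Points of these relations share the RNA sample and its normalization.

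**Figure D5:**
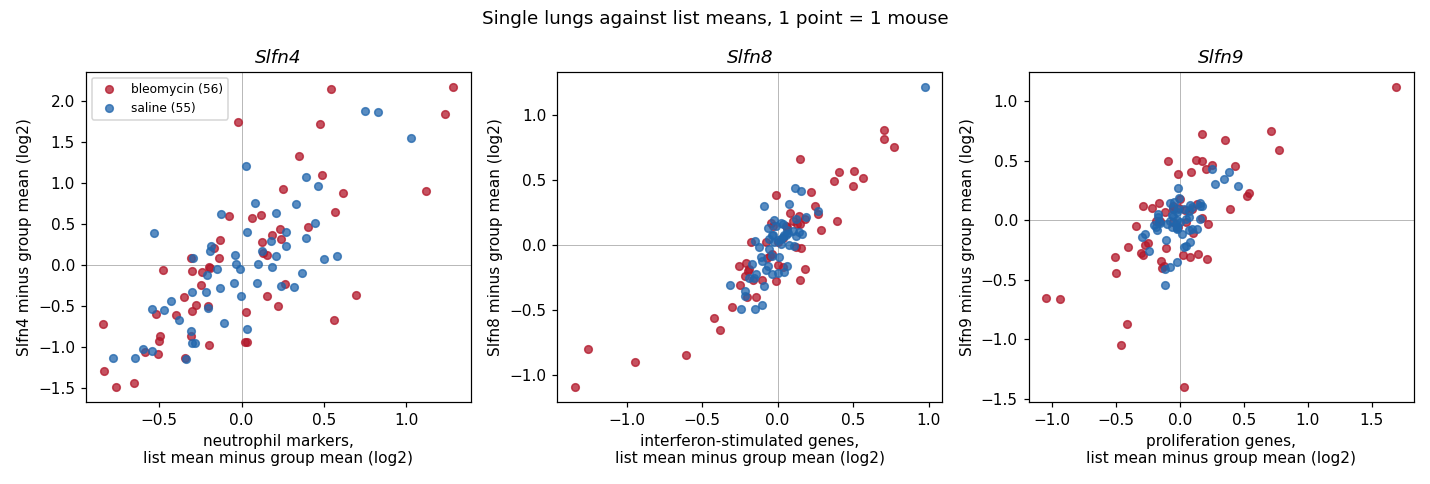
Deviation of single lungs from their group mean in log2 units, the mean of a gene list on the x axis and a Schlafen gene on the y axis, for Slfn4, Slfn8 and Slfn9, with 56 bleomycin and 55 saline mice. Bleomycin and saline mice lie along the same direction in each panel, at r = 0.75, 0.87 and 0.66.

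The genes most like each member were named by rule, as a description. By deviations over all mice these were Lst1 (r = 0.84) and Slfn4 for Slfn1, and Hcls1 (0.84) and Oas3 (0.83) for Slfn2. For Slfn4 they were Slfn1 and S100a8 (0.82), which is among the neutrophil markers. For Slfn8 they were Dhx58 (0.88) and Trim30a (0.87), interferon-induced genes of antiviral defence. Those of Slfn9 were Gtse1 (0.80) and Uhrf1 (0.79), genes of dividing cells. Slfn5 was closest to Cwc25 (0.75) and Herc4 (0.74), and Slfn3 to Bex6 and Daxx (0.45 each). The number of genes with an r over 0.5 was 729 for Slfn9, 633 for Slfn2, 594 for Slfn8, 243 for Slfn1, 93 for Slfn4, 66 for Slfn5 and 0 for Slfn3. Over the 14 group means the closest genes were Slfn4 (0.96) and Ms4a4c (0.95) for Slfn1, Lman1 and Ms4a6c (0.97 each) for Slfn2, Cmtr1 and Kars (0.95 each) for Slfn3, Mefv (0.98) and Slfn1 (0.96) for Slfn4, Nlrc5 (0.94) and 9330175E14Rik (0.90) for Slfn5, Dhx58 and Cmtr1 (0.97 each) for Slfn8, and Bean1 and Dcp2 (0.97 each) for Slfn9. Dhx58 was thus first for Slfn8 by both measures, while Lman1, with 0.97 over the group means of Slfn2, had 0.33 over its deviations.

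Genes of the interferon pathways give the setting of the day 2 pattern. Rises and falls are limma calls at an adjusted p under 0.05. Of all genes, 14.7%, 14.2%, 25.7%, 21.9%, 20.5%, 11.5% and 16.9% were called higher from day 1 to day 35. Called lower were 16.7%, 13.1%, 21.9%, 19.7%, 18.9%, 11.8% and 12.5%. Some counts below lie near these shares, such as 5 of 23 interferon-stimulated genes higher on day 21. Of 23 measured interferon-stimulated genes 23 rose on day 2 with a median difference of 1.49, and 20 rose on day 1, 12 on day 7, 6 on day 14, 5 on day 21 and 2 on each of days 28 and 35, against all-gene medians between -0.01 and 0.02, with 1 gene lower on day 14 and 0 on the other days. On day 2 the chemokine gene Cxcl10 was at 11.74 in bleomycin and 8.23 in saline lungs (difference 3.51 ± 0.41, limma adjusted p = 4.55e-11), and Oas3, a sensor of viral RNA, was at 10.24 in bleomycin and 7.72 in saline lungs (2.52 ± 0.30). Of 11 measured interferon-gamma-induced GTPases and targets 10 rose on days 1 and 2 each, Iigp1 by 1.17 ± 0.19 on day 2, and Cxcl9 was 2.91 ± 0.48 higher on day 7, when 3 rose and 2 fell. Among 14 interferons, receptors and signal transducers 7 rose on day 2, with Stat2 at 0.88 ± 0.10 and Irf9 at 0.66 ± 0.07, subunits of the factor that binds the response element. Of 12 NF-kB feedback and target genes 11 rose and 1 fell on day 2, and the largest differences were 0.83 ± 0.16 for Bcl3 on day 7 and 0.80 ± 0.22 for Ptgs2 on day 1. All 6 measured proliferation genes rose on days 7, 14 and 21, with medians of 1.72, 1.54 and 0.75, against 1 on day 2 and 0 on days 1, 28 and 35, with 1 lower on day 1, and Cdk1 and Cdc20 were 2.03 ± 0.22 and 1.93 ± 0.23 higher on day 7.

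Markers of cells that could hold Schlafen transcripts moved on the same days, and their part in the results was not tested. The shares of all genes called, given above for each day, stand beside these counts as well, and some counts lie near them. On day 2, 5 of 5 measured monocyte markers rose (Ms4a4c by 1.29 ± 0.21), as did 3 of 10 neutrophil markers (Cd177 by 1.61 ± 0.36) and 7 of 9 macrophage markers, with 1 macrophage marker lower. On day 14, when Slfn1 and Slfn4 had negative differences, 3 of 5 monocyte markers and 3 of 10 neutrophil markers were lower, Ifitm6 by -1.40 ± 0.25 and S100a9 by -1.49 ± 0.28, while 1 and 3 were higher. Macrophage markers rose on every day from day 7 in 6 to 8 of 9 genes, C1qb by 2.12 ± 0.20 and C1qa by 1.96 ± 0.18 on day 7. The alveolar macrophage markers were split. On day 14, 4 of 9 fell and 1 rose, with Fabp1 at -3.17 and Cidec at -1.98, and on day 21, 3 fell and 4 rose. On days 1 and 2, 2 and 3 fell and 0 rose. On day 7, 4 fell and 2 rose, and on each of days 28 and 35, 3 fell and 2 rose. T cell markers were called in 3 of 9 genes on day 14 (Cd5 at 0.58 and Il7r at 0.50, higher) and in 0 on day 2, and from day 7 NK cell markers fell in 1 to 7 of 7 genes (Gzma -0.99 and Nkg7 -0.83 on day 35) and B cell markers in 2 to 6 of 6 (Fcrla -1.08 and Blk -1.06 on day 35). Endothelial markers fell in 5 to 7 of 8 genes from day 7 (Tie1 -0.58 and Kdr -0.57 on day 21). Of 6 lung epithelial markers 4 fell on day 2 (Hopx -0.29), and Epcam rose by 0.29 on day 21. Fibroblast markers rose in 4, 3 and 4 of 6 genes on days 7, 14 and 21 and fell in 1, 2 and 2, Lum by 1.27 and Col1a2 by 1.11 on day 14.

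The 4 nearest measured genes beside the cluster differed by 0.04 to 0.42 on day 2. On the side of Slfn5, Unc45b and Unc45bos differed by 0.04 and 0.14 on day 2 and by -0.52 and -0.36 on day 21. On the side of Slfn3, Ap2b1 was higher by 0.42 on day 2 (limma adjusted p = 8.08e-06) and by 0.80 on day 7, and Rasl10b by 0.39 (adjusted p = 0.0465) and 1.26. Both were farther from saline on day 7 than on day 2, as Slfn10-ps was (0.48 on day 2 and 0.76 on day 7). Slfn9 was much the same on both days (1.22 ± 0.18 and 1.26 ± 0.18).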

How the data were processed

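Lung RNA of 56 bleomycin and 55 saline mice was amplified with NuGen Ovation kits and hybridized to mouse expression arrays of Affymetrix. The deposited log2 values were made by the authors, who discarded probes that mapped to no single gene or were outdated, summarized the rest into probesets and normalized them by RMA (version and genome build not given in the sources used here), so that levels are relative to the whole array and a shift shared by most genes would not show. They lie between 2.746 and 14.69. The 1 array left out by the authors was not analysed here, and the number of arrays limits the precision.

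Of 32688 probesets, 27871 named 1 gene, 314 several and 4503 none in the platform annotation. Entrez identifiers of 27761 were found in the RefSeq table (GRCm38.p6), and 0 symbols needed an update. For each of 15707 genes, 7093 of them with several probesets, the probeset that varied most across the arrays stood for the gene. Group means of the 14 groups were fitted with limma 3.58.1 in R 4.3.3 (lmFit and eBayes, default settings), without a filter on dim genes, and p-values were adjusted by Benjamini-Hochberg over all genes within a contrast, with a threshold of 0.05. The fit and the permutation test were tested on simulated data. Deviations from group means were compared by a two-sided permutation test with 100000 draws within groups (numpy 2.4.6, scipy 1.17.1, pandas 2.3.3, Python 3.11.15), adjusted over the pairs of a family. Stretches upstream of start sites were aligned globally (match 2, mismatch -1, gap opening -5, gap extension -1), and motifs were searched on both strands. Figures were drawn with matplotlib 3.10.9.

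The members and gene lists were chosen with earlier results of these data known. Named were every member, for each member the 2 genes most like it by each of 2 measures, for each list the 2 genes with the largest difference among its calls, and the 2 nearest measured genes on each side of the cluster. Alternatives were the choice of probeset, a filter on dim genes, array weights, a further quantile normalization, no moderation of the variance, the 2 groups of a day fitted alone, the replicate number as a block, and leaving out single arrays.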

Additional observations from a re-analysis of the deposited data

Results flagged for a closer look

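In 98 groups of 7 or 8 mice (7 members in 14 groups) the highest or lowest mouse was set against the rest of its group by Dixon's test, and 7 values in 5 mice stood apart, where chance gives about 1 in 20 groups. Slfn9 was 7.56 in bleomycin mouse 3 of day 35, with the other mice of that group at 5.79 to 6.56. The mean of this mouse over the proliferation genes was 9.75, with the others at 7.01 to 8.45. It was also the lowest of its group in the NK cell markers, 7.89 (others 8.19 to 8.85), and the endothelial markers, 11.06 (others 11.15 to 11.54). It was the highest in the macrophage markers, 10.93 (others 10.17 to 10.86), and the NF-kB list, 9.49 (others 9.05 to 9.47). Slfn8 was 9.88 in saline mouse 4 of day 21, against 8.27 to 8.70 in the other saline mice of that day, and its mean over the interferon-stimulated genes was 10.55, with the others at 9.26 to 9.58. This mouse also stood apart in the means of the alveolar macrophage markers, 8.05 (others 10.10 to 10.66), the macrophage markers, 10.59 (others 9.67 to 9.90), and the T cell markers, 9.52 (others 8.58 to 8.96). Slfn1 and Slfn2 were low in the same saline mice. In saline mouse 8 of day 2, Slfn1 was 8.38 (others 8.97 to 9.43) and Slfn2 was 10.49 (others 10.80 to 10.93), and Slfn4, at 9.07, was also the lowest of its group. In saline mouse 6 of day 28, Slfn1 was 8.16 (others 8.72 to 9.07) and Slfn2 was 10.14 (others 10.60 to 10.96), with Slfn4 lowest of its group at 9.56. These mice of days 2 and 28 were also lowest of their groups in the means of several cell markers. These were the T cell (8.77 and 8.54), NK cell (8.65 and 8.76), B cell (9.06 and 8.87) and monocyte markers (9.48 and 9.56). The mouse of day 2 was lowest as well in the interferon-stimulated genes (9.32) and the NF-kB list (8.94). Slfn3 was 5.71 in saline mouse 2 of day 1, with the others at 4.87 to 5.21. The part of the gene lists in these values was not tested.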

How the results depend on the processing

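The 14 pairs of a member and a day called higher were 12 to 17 under 11 alternatives, with 6 to 7 members on day 2, 2 to 3 on day 14 and 2 on day 21. On day 1, 1 member was called, which became 2 with the probeset of highest mean and 2 with the mean of all probesets, and 0 without the dimmest 25% of genes (this filter removes Slfn3, the member called), 0 with array weights and 0 with the saline mice of all days as control. That control also gave 4 members on day 7, against 2, and 1 on day 28, against 0. Array weights gave 1 on day 28 and 1 on day 35, against 0 on each. For calls of lower, 0 pairs became 5 with the probeset of highest mean, all 5 of them Slfn5, 1 with the mean of probesets, 1 with the 2 groups of a day fitted alone and 1 with the saline mice of all days. Of the single differences, 518 moved by less than the replicate spread, 14 by more and 0 changed sign when called. The list genes gave 287 calls higher (278 to 317) and 169 lower (168 to 200) over 10 alternatives. Between saline days 1 member was called, 2 with the probeset of highest mean and 2 with the mean of probesets, where Slfn5 passed (adjusted p = 2.82e-07 and 0.0196), and 0 without the dimmest genes. Of 21 pairs of members 12 passed, 8 with the probeset of highest mean and 7 in saline mice alone. With the probeset of highest mean, r of Slfn5 was 0.19 with Slfn3, 0.08 with Slfn4 and -0.09 with Slfn9. The r of Slfn3 and Slfn9 was 0.16 there. None of these pairs passed in that setting, while with the most variable probesets they passed at 0.23, 0.23, 0.29 and 0.32. Of 105 pairs of a member and a list 62 passed, 62 in bleomycin mice alone and 36 in saline mice alone. In saline mice alone r of the endothelial list was 0.05 with Slfn2 (-0.45 over all mice) and 0.07 with Slfn8 (-0.35), and r of the lung epithelial list was 0.05 with Slfn4 (-0.25) and 0.03 with Slfn9 (-0.43). Unless construction shows the cause, it was not tested. The control from all saline days, the array left out on day 21 and the list pairs within one treatment were chosen after seeing the data.

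Replicate numbers as a block left 14 pairs higher and 0 lower, with 1, 7, 2, 2, 2, 0 and 0 members from day 1 to day 35, and gave 283 and 174 calls of list genes. Deviations of same-numbered bleomycin and saline mice correlated at -0.33 to 0.41, with medians per day of -0.09 to 0.15. Between 0 and 2 saline mice of a day went best with their own number, so no pairing by number was detected. A weak pairing might not show in these values.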
